A study of Mus musculus with 12 samples.

Results

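The genes described here are the 61 mouse genes whose symbol is Gpr followed by a number, with or without 1 letter and 1 digit after it (Gpr26, Gpr137b, Gpr37l1), out of 22317 symbols in the count matrix. Most of them encode G protein-coupled receptors (GPCRs) that were named by number because no ligand was known when they were cloned. RNA-seq data of 12 libraries from wild-type male BALB/c mice aged 8 weeks were analysed. Ischemic injury had been set by photothrombosis (PT), in which laser light excites the dye Rose Bengal in the blood and closes the vessels of the lit area. The groups labelled SB2 and SB4 are brain cortex on day 2 and day 4 after PT of the skull. The groups labelled BS2 and BS6 are interparietal bone, a plate of the skull, on day 2 and day 6 after PT of the brain. Each group had 3 libraries, which the methods of the study call biological replicates. No group labelled as uninjured was analysed here, and by the labels each group is tissue away from the injured site.

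The labelled tissue was checked against marker genes before the Gpr genes were read. The libraries labelled SB2 and BS6 held bone transcripts, and the libraries labelled SB4 and BS2 held brain transcripts. Levels are given in CPM, the counts scaled to a common library size with TMM factors. The summed level of 8 neuron markers was 77.7 to 95.3 CPM in SB2 and 93.0 to 181 CPM in BS6, against 9400 to 9826 CPM in SB4 and 9040 to 9333 CPM in BS2. The summed level of 7 measured markers of osteoblasts and osteocytes was 36850 to 41969 CPM in SB2 and 19217 to 79444 CPM in BS6, against 23.1 to 25.9 CPM in SB4 and 24.2 to 34.5 CPM in BS2. No marker of either list was at 0 in all 3 libraries of a group. The libraries labelled SB2 thus go against their label of brain cortex and the libraries labelled BS2 against their label of bone. Every difference between SB4 and SB2, or between BS6 and BS2, is at once a difference between days and a difference between brain and bone transcripts, and these cannot be told apart. Total counts were 14126082 to 18972654 per library, of which the Gpr genes took 0.0754% to 0.200%.

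BS6 replicate 2 stood apart from its group. In this library the summed level of 6 measured neutrophil lineage markers was 24343 CPM, against 1408 and 3313 CPM in the other BS6 libraries. Its osteoblast and osteocyte markers summed to 19217 CPM against 55766 and 79444 CPM, and its neuron markers to 181 CPM against 94.0 and 93.0 CPM.

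A GPCR spans the membrane with 7 helices and passes a signal from outside the cell to a heterotrimeric G protein, made of an alpha, a beta and a gamma subunit. RGS proteins speed the return of the alpha subunit to rest, and receptor kinases with arrestins switch the receptor off. In the brain many orphan receptors are found in neurons and glia, and several signal without any ligand. In bone and marrow, leukocytes and vessels carry receptors for protons, oxysterols and other lipids. The number in the symbol is not a family: Gpr89, Gpr107, Gpr108, the Gpr137 genes, Gpr155 and Gpr180 encode multi-pass membrane proteins of the Golgi, lysosome or surface that lie outside the classical receptor families.

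The Gpr genes together were more abundant in the libraries with brain transcripts. Their summed level was 1988 ± 87.5 CPM in SB4 and 2020 ± 10.9 CPM in BS2 (SD, n = 3 in each group), against 806 ± 21.8 CPM in SB2 and 814 ± 99.3 CPM in BS6. Group means of at least 10 CPM were reached by 34 genes in SB4, 34 in BS2, 20 in BS6 and 16 in SB2. A few genes carried most of the signal. Gpr26 alone held 22.7% of the Gpr signal in SB4 and 24.1% in BS2, and Gpr153 held 19.2% in SB2 and 16.3% in BS6. Per kilobase of exon, the 5 highest in SB2 were Gpr153 (39.6 CPM per kb), Gpr180 (34.7), Gpr108 (24.1), Gpr137b (17.7) and Gpr162 (13.8), and the same 5 genes led in BS6. In SB4 the 5 highest were Gpr162 (61.1 CPM per kb), Gpr37l1 (57.0), Gpr26 (39.1), Gpr158 (32.0) and Gpr137 (17.1). In BS2 the order was the same for the first 4, and Gpr22 (17.2 CPM per kb) came before Gpr137 (16.3).

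**Figure D1:**
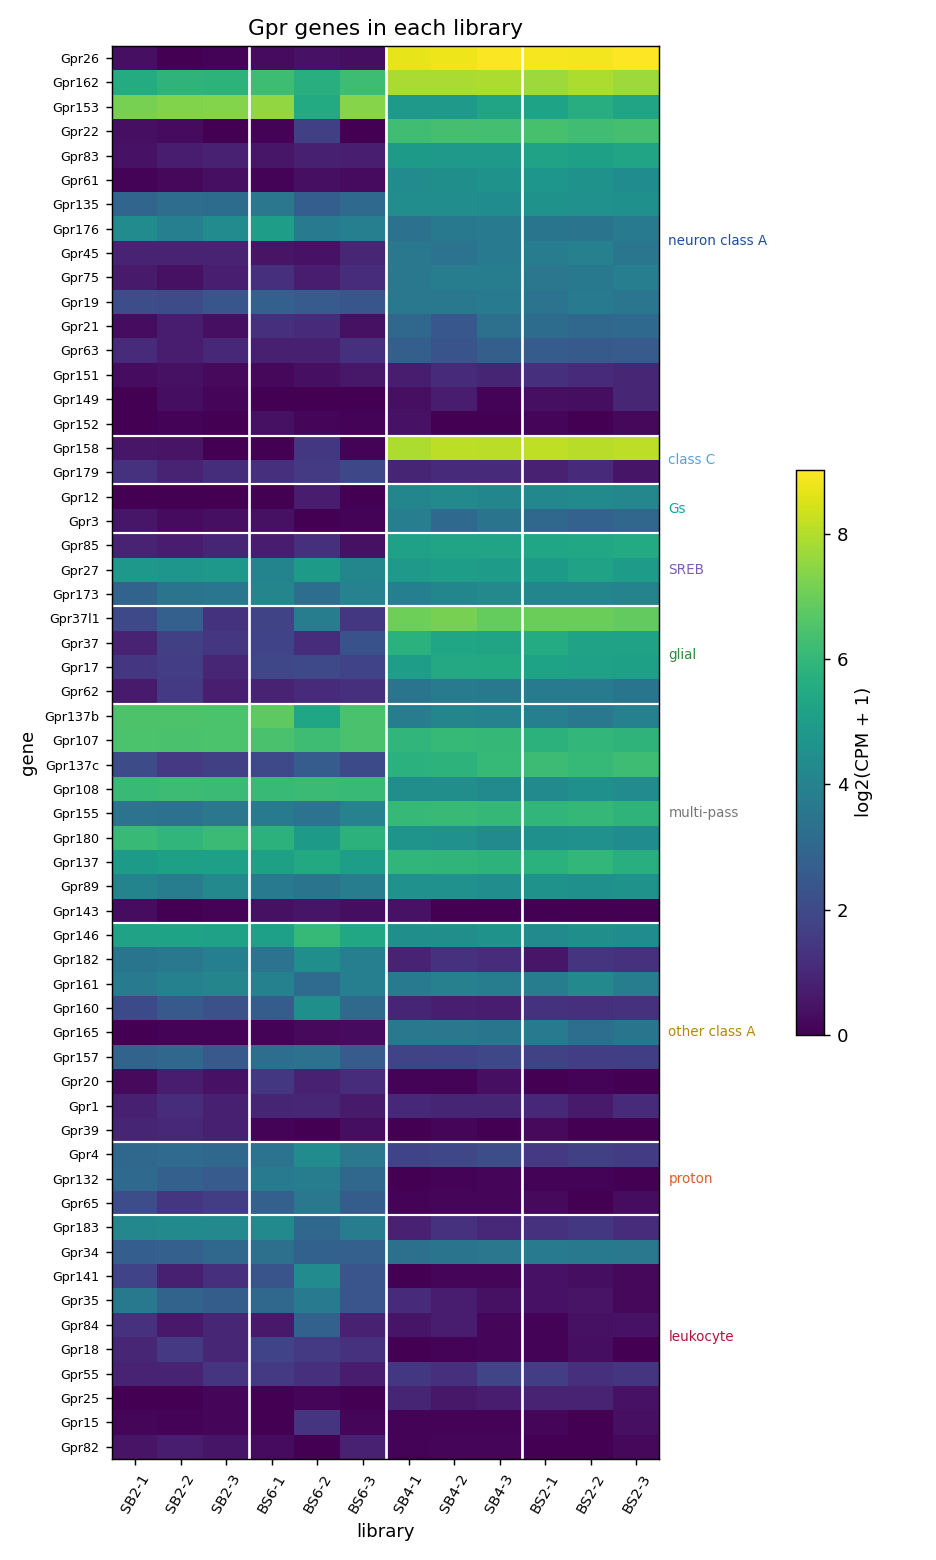
Level of 58 Gpr genes (rows, grouped by role) in the 12 libraries (columns), as log2(CPM + 1). The libraries labelled SB4 and BS2 share 1 pattern, led by Gpr26, Gpr158 and Gpr162, the libraries labelled SB2 and BS6 share another, led by Gpr153, and BS6 replicate 2 (BS6-2) departs from its group in several rows.

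The comparison of SB4 with SB2 asks what differed between day 4 and day 2 after skull PT in libraries labelled brain. The comparison of BS6 with BS2 asks the same of day 6 and day 2 after brain PT in libraries labelled skull. Called genes had an absolute log2 fold change over 1 and an adjusted p under 0.05 in the quasi-likelihood test of edgeR, adjusted by Benjamini-Hochberg over all genes tested. Of 54 Gpr genes tested, 24 were higher in SB4 than in SB2 (44.4%, against a background of 27.8% of all genes tested) and 17 were lower (31.5%, against 28.6%). Of 53 tested, 18 were higher in BS6 than in BS2 (34%, against 29.0%) and 24 were lower (45.3%, against 26.5%). In all, 41 were called in the first comparison (75.9%, against 56.4%) and 42 in the second (79.2%, against 55.5%). All SB4 libraries lay on one side of all SB2 libraries in 49 genes of the first comparison (90.7%, against 85.5%), with 30 higher (55.6%, against 42.4%) and 19 lower (35.2%, against 43.1%). In the second comparison the ranges were separate in 45 genes (84.9%, against 80.8%), with 18 higher (34%, against 39.7%) and 27 lower (50.9%, against 41.0%). The genes higher in SB4 and the genes lower in BS6 were the same 24, and each of them is thus higher in the libraries with brain transcripts. Of these, Gpr19 was not called in BS6 against BS2 without BS2 replicate 2 (log2 fold change -0.997) or BS6 replicate 3 (-0.948). A further 15 were lower in SB4 and higher in BS6. The 39 genes called in both comparisons, out of 52 tested in both (75%), all had opposite signs. Among all genes, 8342 of the 8355 called in both had opposite signs, which is 49.2% of those tested in both. Opposite signs among called genes are thus no trait of the Gpr genes. The median log2 fold change of the Gpr genes was 0.75 for SB4 against SB2 and -0.58 for BS6 against BS2, while that of all genes was -0.01 and 0.02. The difference between the 2 changes had an adjusted p under 0.05 in 52 of 56 Gpr genes in an edgeR fit over the 12 libraries (92.9%, against 84.9% of all genes). In bulk tissue, fewer cells of a type and less RNA per cell cannot be told apart.

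**Figure D2:**
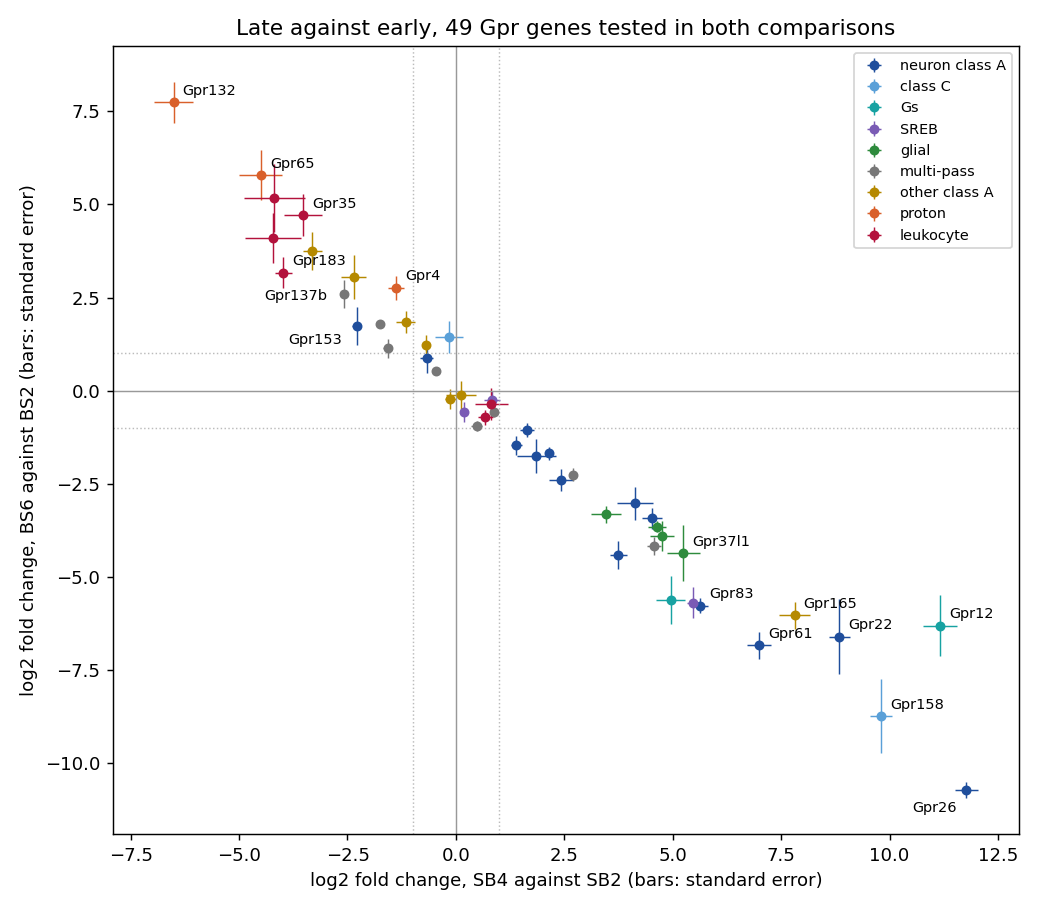
Log2 fold change of 49 Gpr genes in SB4 against SB2 (x axis) and in BS6 against BS2 (y axis), with standard errors, coloured by role; dotted lines mark a log2 fold change of 1 in either direction. The 37 plotted genes called in both comparisons lie in the upper left or lower right; the points of Gpr12, Gpr132, Gpr165 and Gpr18 rest on 3 or fewer counts in a group and are fitted values, not bounds.

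Of the 24 Gpr genes with the highest group mean, 23 are described by rule; other Gpr genes are named after their values were seen. Genome positions are from GENCODE M21 (GRCm38/mm10), in which all 61 symbols were found as protein-coding genes.

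Class A receptors of central neurons were the largest set, with 17 genes measured. Of 15 tested, 13 were higher in SB4 than in SB2 and 1 lower, and 13 were lower in BS6 than in BS2 and 1 higher. Of all genes, 27.8% and 28.6% were higher and lower in the first comparison and 29.0% and 26.5% in the second. The set summed to 983 ± 76.0 CPM in SB4 and 1019.8 ± 19.7 CPM in BS2, against 249 ± 16.6 CPM in SB2 and 241 ± 102 CPM in BS6. Gpr26, a receptor of the forebrain with activity towards Gs in the absence of ligand, led the set. It lies on chr7:131966460-131994405 (plus strand). Gpr26 was at 413, 439 and 504 CPM in the SB4 libraries and at 480.3, 463 and 517 CPM in the BS2 libraries. In SB2 it was at 0.285, 0 and 0.0611 CPM (6 counts in all), and in BS6 at 0.196, 0.362 and 0.255 CPM. Every library with brain transcripts lay far above every library with bone transcripts. The log2 fold change was 11.77 for SB4 against SB2 (standard error 0.26, adjusted p = 1.7e-10) and -10.72 for BS6 against BS2 (standard error 0.22, adjusted p = 2.75e-06). Without SB2 replicate 1, which held 5 of those 6 counts, the first value was 13.48.

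Gpr22, a receptor of brain and heart, lies on chr12:31706867-31713947 (minus strand). It was at 74.3, 80.8 and 78.6 CPM in SB4 and at 82.3, 75.2 and 80.8 CPM in BS2, against 0.285, 0.200 and 0 CPM in SB2. In BS6 it was at 0.0652, 2.23 and 0 CPM, so that replicate 2 held nearly all of the group's signal. The log2 fold change was 8.84 for SB4 against SB2 (standard error 0.24; 9.56 without SB2 replicate 1) and -6.60 for BS6 against BS2 (standard error 1.01, adjusted p = 0.00114), the latter being -10.91 without BS6 replicate 2. Gpr61, a receptor with constitutive activity, and Gpr83, a receptor for the neuropeptide PEN, showed the same split. Gpr61 had a mean of 21.5 ± 2.08 CPM in SB4 and 23.0 ± 2.92 CPM in BS2, against 0.165 ± 0.127 CPM in SB2 and 0.186 ± 0.118 CPM in BS6. Gpr83 had a mean of 28.5 ± 0.698 CPM in SB4 and 35.6 ± 1.91 CPM in BS2, against 0.578 ± 0.227 CPM in SB2 and 0.627 ± 0.148 CPM in BS6. Their log2 fold changes for SB4 against SB2 were 6.98 (standard error 0.28; 7.76 without SB2 replicate 3) and 5.62 (standard error 0.20), and for BS6 against BS2 -6.83 (standard error 0.36) and -5.77 (standard error 0.20).

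Gpr135 had means of 20.2 ± 0.517 CPM in SB4 and 22.6 ± 0.434 CPM in BS2 against 7.74 ± 0.896 CPM in SB2 and 7.97 ± 2.79 CPM in BS6, with log2 fold changes of 1.39 and -1.47 (standard errors 0.12 and 0.25).

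Gpr162 and Gpr153 are close relatives in sequence and differed in direction. Gpr162, on chr6:124858444-124863983 (minus strand), was at 231, 231 and 241 CPM in SB4 and 206, 239 and 206 CPM in BS2. It was at 46.1, 56.6 and 55.7 CPM in SB2 and 73.5, 50.9 and 73.1 CPM in BS6, lower than every library of the other pair of groups. Its log2 fold changes were 2.15 (standard error 0.08, adjusted p = 5.66e-10) and -1.68 (standard error 0.17, adjusted p = 0.000145). Gpr153, on chr4:152274232-152285337 (plus strand), was at 144, 159 and 161 CPM in SB2 against 28.5, 28.8 and 37.4 CPM in SB4, with a log2 fold change of -2.29 (standard error 0.11, adjusted p = 6.49e-09). In BS6 it was at 188, 45.1 and 164 CPM against 36.3, 47.8 and 37.6 CPM in BS2, so BS6 replicate 2 fell within the range of BS2 and the groups overlapped. The log2 fold change was 1.74 (standard error 0.50, adjusted p = 0.0181), and 2.15 without BS6 replicate 2, when the gene was still called. This call was lost without BS6 replicate 1 (1.40, adjusted p = 0.0513), without BS2 replicate 1 (1.65, adjusted p = 0.0652) and without BS2 replicate 3 (1.68, adjusted p = 0.0642). Gpr176, a receptor of the circadian centre, had a mean of 17.4 ± 3.22 CPM in SB2 and 19.5 ± 11.3 CPM in BS6 against 10.9 ± 1.30 CPM in SB4 and 10.97 ± 1.27 CPM in BS2. It was called in neither comparison (log2 fold changes -0.68 and 0.87, adjusted p = 0.00186 and 0.0862). Without BS6 replicate 2 the second value was 1.12 (adjusted p = 0.0317) and the gene was called.

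Class C receptors have a long extracellular part and are relatives of the metabotropic glutamate and GABA-B receptors. Gpr158, a partner of the RGS7 complex in neurons, lies on chr2:21367542-21830547 (plus strand). It was at 242, 274 and 269.6 CPM in SB4 and 282, 261 and 280.5 CPM in BS2, against 0.456, 0.400 and 0 CPM in SB2. In BS6 it was at 0, 1.75 and 0.0636 CPM, with 29 of its 30 counts in replicate 2. The log2 fold changes were 9.81 (standard error 0.26, adjusted p = 2.35e-09) and -8.73 (standard error 1.00, adjusted p = 0.000306), the latter being -12.70 without BS6 replicate 2. Gpr179, a class C gene of retinal bipolar cells, lay between 0.764 and 2.04 CPM in the group means and was called higher in BS6 than in BS2 only (1.43, adjusted p = 0.021), a call that was lost without BS2 replicate 1, BS2 replicate 3 or BS6 replicate 3 (adjusted p = 0.0689, 0.0666 and 0.0637).

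Gpr3 and Gpr12 raise cyclic AMP through Gs without added ligand and were both found mainly in the libraries with brain transcripts. Gpr12 was at 16.5, 18.6 and 16.8 CPM in SB4 and 17.3, 18.4 and 16.9 CPM in BS2. It had no count in any SB2 library, which makes it at least 93.9-fold higher in SB4 against a floor of 3 counts per library, and in BS6 its only counts, 10 of them, were in replicate 2. The log2 fold change for BS6 against BS2 was -6.30 (standard error 0.83, adjusted p = 0.000562) with that library, without which BS6 had no count. Gpr3 was at 13.3, 7.56 and 10.03 CPM in SB4 and 7.02, 6.21 and 6.90 CPM in BS2, against 0.200 to 0.456 CPM in SB2 and 0 to 0.326 CPM in BS6. Its log2 fold changes were 4.95 (standard error 0.34) and -5.60 (standard error 0.64; -7.39 without BS6 replicate 1).

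The SREB receptors Gpr27, Gpr85 and Gpr173 are a family highly conserved among vertebrates. Gpr85 was at 34.4, 37.0 and 37.8 CPM in SB4 and 38.9, 40.2 and 44.96 CPM in BS2, against 0.666 to 0.916 CPM in SB2 and 0.318 to 1.33 CPM in BS6. Gpr85 had log2 fold changes of 5.47 (standard error 0.14) and -5.69 (standard error 0.42; -6.36 without BS6 replicate 2). Gpr27 was abundant in every group, with 30.0 ± 1.65 CPM in SB4, 31.4 ± 3.78 CPM in BS2, 26.5 ± 0.613 CPM in SB2 and 20.4 ± 7.62 CPM in BS6. It passed the test in neither comparison (log2 fold changes 0.18 and -0.58, adjusted p = 0.0608 and 0.091). Gpr173 was at 16.1 ± 2.14 CPM in SB4 and 16.2 ± 0.914 CPM in BS2 against 9.08 ± 2.36 CPM in SB2 and 13.2 ± 4.10 CPM in BS6. It was not called either (0.83 and -0.26), although the first change had an adjusted p of 0.00199 and missed only the fold threshold. Among the 3 relatives, Gpr85 alone was called. It was higher in SB4 than in SB2 and lower in BS6 than in BS2, as were 27.8% and 26.5% of all genes.

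All 4 glial receptors were higher in SB4 than in SB2 and lower in BS6 than in BS2, against 27.8% and 26.5% of all genes. In each comparison the libraries of the groups did not overlap for these 4 genes, as was so for 85.5% and 80.8% of all genes. Gpr37l1, an astrocyte receptor on chr1:135160234-135167681 (minus strand), was at 128, 143 and 117 CPM in SB4 and 125, 127 and 115 CPM in BS2. It was at 3.02, 5.86 and 1.53 CPM in SB2 and at 2.61, 12.9 and 1.78 CPM in BS6, where replicate 2 was again the highest. The log2 fold changes were 5.25 (standard error 0.37, adjusted p = 5.75e-05) and -4.36 (standard error 0.75, adjusted p = 0.00197; -5.76 without BS6 replicate 2). Its relative Gpr37, a gene of myelinating oligodendrocytes, had means of 42.8 ± 8.70 CPM in SB4 and 38.7 ± 6.09 CPM in BS2 against 1.61 ± 0.710 CPM in SB2 and 2.52 ± 1.34 CPM in BS6. Gpr17, which marks oligodendrocyte precursors on their way to differentiation, was at 32.6, 42.9 and 43.7 CPM in SB4 and 36.6, 35.2 and 33.6 CPM in BS2. In SB2 it was at 1.71, 2.13 and 0.977 CPM and in BS6 at 2.74, 2.96 and 2.48 CPM, so that every BS6 library lay above every SB2 library. The log2 fold changes of Gpr37 were 4.75 and -3.91 and those of Gpr17 were 4.64 and -3.65, with standard errors of 0.14 to 0.40. Gpr62, another oligodendrocyte gene, was at 11.2 ± 0.841 CPM in SB4 and 11.4 ± 0.867 CPM in BS2 against 1.04 ± 0.720 CPM in SB2 and 1.11 ± 0.246 CPM in BS6. Oligodendrocyte markers moved in the same direction (6 of 6 higher in SB4 and 6 of 6 lower in BS6), as did 5 of 6 astrocyte markers. Of 4 oligodendrocyte precursor markers, 2 were higher and 2 lower in each comparison. Olig1 and Olig2 moved as Gpr17 did, and Pdgfra and Cspg4 went the other way. Olig1 had a mean of 52.3 CPM in SB4 and 45.5 CPM in BS2 against 0.625 CPM in SB2 and 0.782 CPM in BS6. The summed level of the 4 was 315 to 349 CPM in SB2 and 231 to 416 CPM in BS6 against 133 to 138 CPM in SB4 and 121 to 126 CPM in BS2. In SB2 and BS6 most of that sum was Pdgfra (means 233 and 282 CPM) and Cspg4 (98.0 and 55.8 CPM). The part of these markers in the levels of the glial receptors was not tested.

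**Figure D3:**
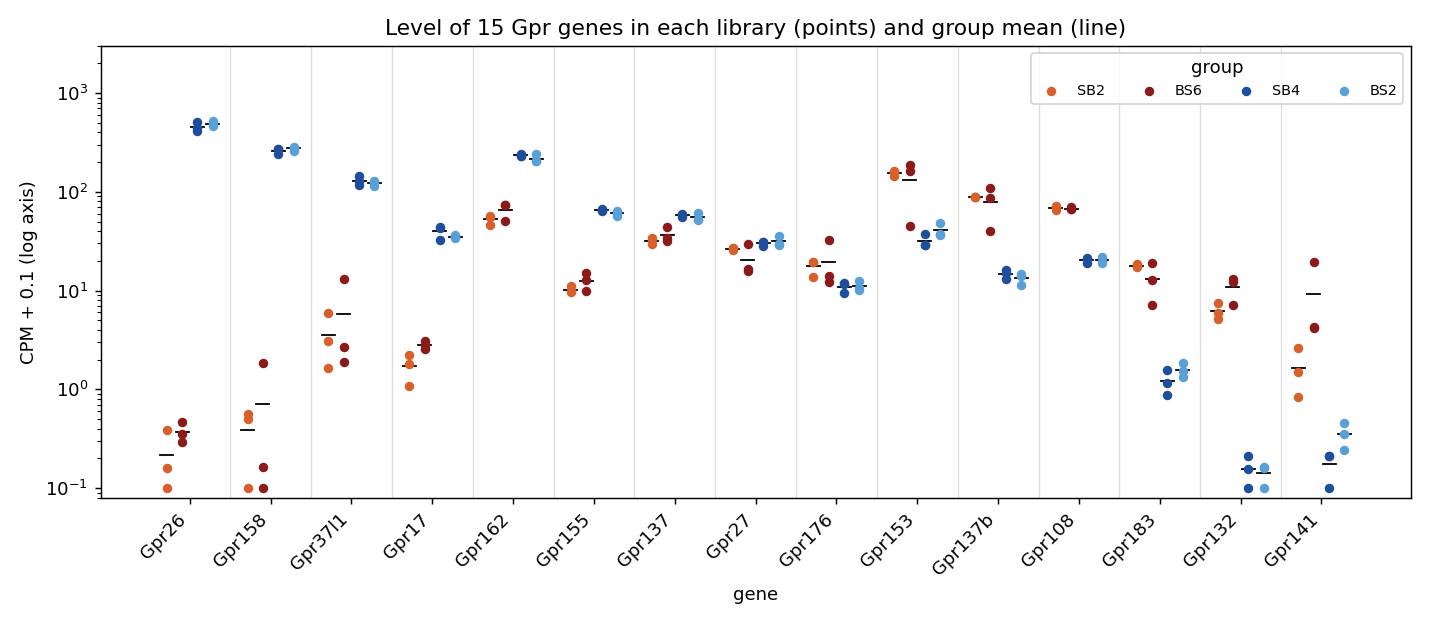
Level (CPM + 0.1, log axis) of 15 Gpr genes in every library; points are libraries, coloured by group, and lines are group means of 3 libraries. Gpr26, Gpr158, Gpr37l1 and Gpr17 are high in SB4 and BS2, Gpr27 was called in neither late against early comparison, and Gpr153, Gpr137b, Gpr108, Gpr183, Gpr132 and Gpr141 are higher in SB2 and in most BS6 libraries.

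The multi-pass proteins outside the classical receptor families summed to like levels, with 369 ± 7.95 CPM in SB2, 338 ± 49.7 CPM in BS6, 323 ± 4.74 CPM in SB4 and 322 ± 7.11 CPM in BS2, with members that moved in either direction. Of 8 tested, 2 were higher and 3 lower in SB4 than in SB2 (against 27.8% and 28.6% of all genes), and 3 were higher and 2 lower in BS6 than in BS2 (against 29.0% and 26.5%). Both directions were found within the Gpr137 family of lysosomal proteins. Gpr137b, a regulator of lysosomes and of osteoclasts on chr13:13357620-13394014 (minus strand), was at 88.7, 89.5 and 88.2 CPM in SB2 against 13.0, 16.04 and 15.1 CPM in SB4. In BS6 it was at 109, 39.6 and 86.1 CPM, with replicate 2 the lowest, against 13.8, 11.2 and 14.7 CPM in BS2. Gpr137c, on chr14:45219717-45282725 (plus strand), was at 53.6, 56.4 and 64.9 CPM in SB4 and 71.0, 65.4 and 73.6 CPM in BS2, against 1.80 to 3.25 CPM in SB2 and 3.00 to 5.13 CPM in BS6. The log2 fold changes were -2.58 (standard error 0.09) and 2.59 (standard error 0.38) for Gpr137b, and 4.57 (standard error 0.17) and -4.18 (standard error 0.24) for Gpr137c. The third relative, Gpr137, was at 58.0 ± 2.30 CPM in SB4 and 55.3 ± 5.32 CPM in BS2 against 31.9 ± 2.25 CPM in SB2 and 36.5 ± 6.22 CPM in BS6. Its log2 fold changes of 0.87 and -0.56 stayed under the fold threshold. Of its exon bases, 15.4% overlap Bad on the opposite strand, and Gpr137b has a pseudogene copy in the annotation, so reads of these genes could be split.

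Gpr108 and Gpr107 are related Golgi proteins and moved in 1 direction by different amounts. Gpr108 was at 66.0, 71.1 and 69.6 CPM in SB2 and 66.5, 70.1 and 66.1 CPM in BS6, against 20.8, 21.04 and 19.05 CPM in SB4 and 19.1, 21.8 and 19.4 CPM in BS2. The libraries of each group lay close together, and the log2 fold changes were -1.76 (standard error 0.08, adjusted p = 1.97e-09) and 1.79 (standard error 0.10, adjusted p = 1.67e-05). Gpr107 was at 86.3 ± 1.84 CPM in SB2 and 81.5 ± 6.57 CPM in BS6 against 62.4 ± 1.94 CPM in SB4 and 58.0 ± 3.27 CPM in BS2. Its log2 fold changes of -0.46 (adjusted p = 3.14e-05) and 0.53 were under the fold threshold and not called. Gpr180, a component of TGF-beta signalling, was at 65.1 ± 5.08 CPM in SB2 and 46.4 ± 14.6 CPM in BS6 against 21.9 ± 2.80 CPM in SB4 and 21.6 ± 1.57 CPM in BS2. For Gpr180 the log2 fold changes were -1.57 (standard error 0.11) and 1.14 (standard error 0.25). Gpr155, a cholesterol sensor of the lysosome, was at 65.4 ± 2.04 CPM in SB4 and 60.7 ± 3.36 CPM in BS2 against 10.1 ± 0.697 CPM in SB2 and 12.4 ± 2.496 CPM in BS6, with log2 fold changes of 2.69 and -2.25 (standard errors 0.09 and 0.16). Gpr89, a Golgi pH regulator, was at 21.8 ± 1.19 CPM in SB4 and 23.1 ± 0.804 CPM in BS2 against 15.7 ± 2.39 CPM in SB2 and 11.6 ± 1.57 CPM in BS6. It was not called (0.48 and -0.96), but was called lower in BS6 than in BS2 without BS2 replicate 2 (-1.004, adjusted p = 0.00408) or BS6 replicate 3 (-1.05, adjusted p = 0.00145), and 24.9% of its exon bases overlap Pdzk1 on the opposite strand.

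Proton-sensing receptors respond to acid outside the cell. Gpr132, Gpr65 and Gpr4, which are not the whole set, were lower in SB4 than in SB2 and higher in BS6 than in BS2. Of all genes, 28.6% were lower in the first comparison and 29.0% higher in the second. Gpr132, a gene of leukocytes on chr12:112850873-112868228 (minus strand), was at 7.40, 5.79 and 5.07 CPM in SB2 and 12.1, 12.9 and 7.0 CPM in BS6. It had 0, 1 and 2 counts in the SB4 libraries and 1, 1 and 0 in those of BS2. The ratio of SB4 to SB2 was 0.00970 (exact 95% counting interval 0.00199 to 0.0286) and that of BS6 to BS2 was 248 (68.2 to 2051). Without SB4 replicate 3 the fitted log2 fold change for SB4 against SB2 moved from -6.51 to -7.30. Gpr65, another leukocyte receptor, was at 3.36, 1.66 and 2.14 CPM in SB2 and 5.74, 11.2 and 5.35 CPM in BS6 against at most 0.218 CPM in any library of SB4 or BS2. For Gpr65 the log2 fold changes were -4.50 (standard error 0.49) and 5.79 (standard error 0.68). Gpr4, a receptor of endothelial cells, was at 7.53 ± 0.398 CPM in SB2 and 13.3 ± 5.13 CPM in BS6 against 2.87 ± 0.437 CPM in SB4 and 2.01 ± 0.211 CPM in BS2, with log2 fold changes of -1.38 and 2.76 (standard errors 0.18 and 0.32).

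Of 10 leukocyte receptor genes measured, 7 were tested in SB4 against SB2, where 5 were lower (against 28.6% of all genes) and 2 were not called. In BS6 against BS2, 4 of 6 tested were higher (against 29.0%) and 2 were not called. Gpr183, the oxysterol receptor that positions immune cells, was at 17.2, 18.4 and 17.8 CPM in SB2 and 18.98, 7.07 and 12.7 CPM in BS6. It was at 0.780, 1.47 and 1.06 CPM in SB4 and 1.42, 1.73 and 1.23 CPM in BS2, below every library of the other groups. The log2 fold changes were -3.98 (standard error 0.20, adjusted p = 4.91e-09) and 3.17 (standard error 0.41, adjusted p = 0.000501). Gpr35 had log2 fold changes of -3.53 and 4.71 (standard errors 0.44 and 0.57). Gpr18 had 3 counts in all of SB4 and 5 in all of BS2, a ratio of SB4 to SB2 of 0.0485 (exact 95% counting interval 0.00973 to 0.149) and a log2 fold change of 4.11 for BS6 against BS2 (5.61 without BS2 replicate 2). Its fitted log2 fold change for SB4 against SB2 moved from -4.21 to -5.01 without SB4 replicate 3. Gpr141, a myeloid gene, was at 2.51, 0.733 and 1.40 CPM in SB2 and 4.11, 19.4 and 4.14 CPM in BS6, so that its highest level was in the library with the highest neutrophil markers. Its change for BS6 against BS2 was 5.17, and 3.99 without BS6 replicate 2. Gpr84 was called lower in SB4 than in SB2 (-1.30, adjusted p = 0.0473), although the groups overlapped. That call was lost without SB2 replicate 1, SB2 replicate 3, SB4 replicate 1 or SB4 replicate 3 (adjusted p = 0.199, 0.0754, 0.1 and 0.175), and the value was -1.90 without SB4 replicate 2. DESeq2 and the fit over the 12 libraries did not call it either (adjusted p = 0.101 and 0.253). Gpr34, a lysophosphatidylserine receptor of microglia and other myeloid cells, was at 9.92 ± 0.899 CPM in SB4 and 11.69 ± 0.557 CPM in BS2 against 6.22 ± 0.972 CPM in SB2 and 6.92 ± 1.80 CPM in BS6. Its log2 fold changes of 0.68 (adjusted p = 0.00251) and -0.72 were under the fold threshold and not called. Neutrophil, macrophage and B cell markers were all lower in SB4 than in SB2 and higher in BS6 than in BS2 (6 of 6, 6 of 6 and 5 of 5 tested). Of T cell markers, 1 of 2 tested was lower in SB4 and 3 of 3 were higher in BS6. Of 6 microglia markers, 2 were higher and 1 lower in SB4 than in SB2, and 1 was higher and 3 lower in BS6 than in BS2. The part of these markers in the levels of these receptors was not tested.

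Among other class A receptors, Gpr146, a gene linked to cholesterol metabolism in liver, was at 35.9, 37.0 and 35.1 CPM in SB2 and 33.0, 64.5 and 40.7 CPM in BS6, against 21.4, 21.1 and 23.8 CPM in SB4 and 18.5, 21.7 and 20.1 CPM in BS2. It was called in BS6 against BS2 only (1.24, adjusted p = 0.00481), and its value of 0.91 without BS6 replicate 2 was under the fold threshold. Gpr182, an atypical chemokine receptor of endothelial cells, was at 11.8 ± 1.70 CPM in SB2 and 14.99 ± 5.83 CPM in BS6 against 1.16 ± 0.286 CPM in SB4 and 1.15 ± 0.592 CPM in BS2. Endothelial markers were lower in SB4 and higher in BS6 in the same way (5 of 5 each), and their part was not tested. Gpr165 went the other way, with 10.8 ± 0.340 CPM in SB4 and 10.4 ± 1.75 CPM in BS2 against 2 counts in all of SB2 and 7 in all of BS6. The ratio of SB4 to SB2 was 265 (exact 95% counting interval 73.0 to 2193), and the log2 fold change for BS6 against BS2 was -6.03 (standard error 0.35). Gpr161, a receptor of the primary cilium, was at 12.1 to 14.5 CPM in the group means and differed in neither comparison by the test (log2 fold changes -0.13 and -0.23, standard errors 0.13 and 0.27).

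The fits left 6 genes untested in both comparisons for low counts, Gpr15, Gpr25, Gpr82, Gpr143, Gpr149 and Gpr152, none of which had a group mean of 1 CPM. BS6 replicate 2 held 26 of the 28 counts of Gpr15 in its group. Of these, Gpr25 had 33 counts in SB4 and 33 in BS2 against 2 each in SB2 and BS6, although 41.6% of its exon bases overlap an antisense transcript. Exon bases were shared with another gene by 24 Gpr genes, and by 7 of them over at least 10% of their length.

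The start of a gene was looked at where Gpr genes moved together. Windows from 250 bases before to 50 after the RefSeq start (GRCm38.p6) were found for 44 of the 61 genes, among them 17 of the 24 higher and 12 of the 15 lower in the libraries with brain transcripts. They were searched on both strands for 4 motifs, none of which contains another: the cyclic AMP element TGACGTCA, the PU.1 and ETS motif GAGGAAGT, the RUNX motif AACCACA and the NRF1 motif, whose 10 letters are the capitals in the Gpr19 window shown here. The cyclic AMP element was in none of 59 Gpr windows, against 1.79% of all windows. The PU.1 letters were in windows of Gpr137, Gpr137c and Gpr55 (5.08% of Gpr windows, against 3.2% of all), and the RUNX letters in those of Gpr132, Gpr18, Gpr15, Gpr176 and Gpr39 (8.47%, against 5.27%). The NRF1 letters were at a single site of Gpr19, covered by 2 overlapping windows (3.39%, against 0.971%). Such matches describe these windows and are no sign of binding. A pair of leukocyte genes with the RUNX letters, Gpr132 and Gpr18, is shown beside a pair higher in the libraries with brain transcripts, Gpr19 with the NRF1 letters and Gpr158 with none of the 4 motifs. Capitals mark the motif, which is on the opposite strand in Gpr132, and positions are chr12:112860867-112861166 for Gpr132, chr14:121915839-121916138 for Gpr18 and chr6:134897876-134898175 for Gpr19 (all minus strand), and chr2:21367317-21367616 for Gpr158 (plus strand).
Gpr132: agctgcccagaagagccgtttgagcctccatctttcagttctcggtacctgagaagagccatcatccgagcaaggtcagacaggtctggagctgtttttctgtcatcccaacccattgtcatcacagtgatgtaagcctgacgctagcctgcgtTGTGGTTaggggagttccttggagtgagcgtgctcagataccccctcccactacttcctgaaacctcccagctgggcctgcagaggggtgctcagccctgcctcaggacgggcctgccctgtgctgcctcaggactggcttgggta
Gpr18: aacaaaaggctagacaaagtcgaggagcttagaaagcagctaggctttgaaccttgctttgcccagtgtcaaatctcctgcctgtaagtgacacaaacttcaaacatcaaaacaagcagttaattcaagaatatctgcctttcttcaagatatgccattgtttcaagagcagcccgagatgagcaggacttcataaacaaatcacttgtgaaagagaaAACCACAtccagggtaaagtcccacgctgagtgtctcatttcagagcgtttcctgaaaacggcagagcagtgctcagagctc
Gpr19: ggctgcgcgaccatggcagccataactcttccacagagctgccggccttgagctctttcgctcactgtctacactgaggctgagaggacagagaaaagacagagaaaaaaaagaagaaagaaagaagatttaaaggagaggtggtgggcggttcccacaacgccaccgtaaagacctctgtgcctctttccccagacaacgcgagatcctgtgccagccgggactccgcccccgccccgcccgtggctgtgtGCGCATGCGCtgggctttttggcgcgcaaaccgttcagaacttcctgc
Gpr158: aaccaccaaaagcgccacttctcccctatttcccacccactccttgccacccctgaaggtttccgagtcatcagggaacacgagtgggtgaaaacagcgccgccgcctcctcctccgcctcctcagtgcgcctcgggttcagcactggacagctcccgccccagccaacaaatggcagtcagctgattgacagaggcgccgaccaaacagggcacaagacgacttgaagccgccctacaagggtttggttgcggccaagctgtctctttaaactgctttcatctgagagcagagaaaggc

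Lists of genes for the proteins that Gpr receptors signal through were read against the shares of all genes called, which were 27.8% higher and 28.6% lower in SB4 than in SB2, and 29.0% higher and 26.5% lower in BS6 than in BS2. Of 14 tested alpha subunit genes, 5 were higher in SB4 than in SB2 and 5 lower, and 5 were higher in BS6 than in BS2 and 5 lower. Gnao1, the main alpha subunit of brain, was at 669 ± 27.6 CPM in SB4 and 632 ± 6.76 CPM in BS2 against 30.9 ± 1.52 CPM in SB2 and 42.6 ± 8.91 CPM in BS6, and Gnal had log2 fold changes of 5.59 and -4.58. Gnai2, the main inhibitory subunit of leukocytes, went the other way, with 511 ± 14.1 CPM in SB2 and 632 ± 208 CPM in BS6 against 123 ± 4.75 CPM in SB4 and 119.9 ± 7.77 CPM in BS2, and Gnai3 had log2 fold changes of -2.05 and 1.74. Of 14 beta and gamma subunit genes, 5 were higher and 5 lower in SB4 than in SB2, and 4 were higher and 6 lower in BS6 than in BS2. Gng3 (7.56 and -7.14) and Gng4 (3.66 and -2.57) were higher in the libraries with brain transcripts, and Gnb3 (-7.58 and 8.19) and Gng8 (-4.18 and 3.82) in those with bone transcripts. The level of Gnb3 was uneven in SB2, at 31.6 ± 26.3 CPM, and its first change had a standard error of 1.90 (adjusted p = 0.0183).

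Against the same shares of all genes, of 20 RGS genes tested 10 were higher and 6 lower in SB4 than in SB2, and 6 were higher and 9 lower in BS6 than in BS2. Rgs6 (7.09 and -5.95) and Rgs20 (6.79 and -5.85) had the largest changes to one side among RGS genes that reached 10 CPM in either group mean, and Rgs18 (-4.81 and 6.08) and Rgs3 (-2.76 and 3.00) to the other. Of 7 arrestin and receptor kinase genes, 3 were higher in SB4 than in SB2 and none lower, while 1 was higher and 1 lower in BS6 than in BS2, against 56.4% and 55.5% of all genes called either way. Arrb1 (1.75 and -1.29) was called in both, and Grk3 (1.45 and -0.93) in the first. Arrb2 was called in the second (2.74, standard error 0.69), with 206 ± 201 CPM in BS6. Of 5 genes of Gprasp and Gprin proteins, which bind or sort GPCRs, 4 were higher in SB4 and 4 were lower in BS6, among them Gprin1 (4.91 and -5.14), Gprasp2 (3.74 and -2.89) and Gprasp1 (3.69 and -3.27). Of the enzymes that make the ligand of Gpr183, Ch25h was lower in SB4 than in SB2 (-4.62, adjusted p = 3.47e-07) and higher in BS6 than in BS2 (3.21, standard error 0.86, adjusted p = 0.0137), the direction of Gpr183 itself. Its levels were low, at 7.51 ± 1.74 CPM in SB2 and 2.05 ± 1.31 CPM in BS6 against 0.295 ± 0.189 CPM in SB4 and 0.231 ± 0.219 CPM in BS2. Cyp7b1 was not called in the first (0.47) and was lower in BS6 than in BS2 (-1.08, adjusted p = 0.0411).

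Comparing groups with like tissue transcripts removes most of that contrast. SB2 and BS6 both hold bone transcripts, although their labels differ in tissue, injury site and day. Levels of some other tissue markers were not alike in these groups. Skeletal muscle markers summed to 287 to 2380 CPM in SB2 and 77.3 to 568 CPM in BS6. Neutrophil lineage markers summed to 848 to 1516 CPM in SB2 and 1408 to 24343 CPM in BS6. None of these 5 and 6 markers was called, and their part in the Gpr levels was not tested. Of 47 Gpr genes tested, none was called (background 1.86% of genes tested, 0.741% higher and 1.11% lower in SB2), while 9 had an unadjusted p under 0.05 (against 29.2% of all genes) and DESeq2 called 3 lower in SB2 (against 4.59% of all genes lower). The largest differences were those of Gpr39, a zinc receptor, and Gpr141. Gpr39 was at 0.911, 1.07 and 0.733 CPM in SB2 (44 counts) against 0.0652, 0 and 0.255 CPM in BS6 (5 counts), with a log2 fold change of 2.99 (standard error 0.74, adjusted p = 0.0657), and 39.9% of its exon bases overlap Lypd1 on the opposite strand. Without BS6 replicate 2 Gpr39 was called (2.42, adjusted p = 0.0365), and without BS6 replicate 3, which held 4 of the 5 counts, its value was 4.52 and it was not called. Gpr65 was at -1.65 (adjusted p = 0.0664) and was called lower in SB2 without BS6 replicate 2 (-1.21, adjusted p = 0.0303), as was Gpr20 (-1.98, adjusted p = 0.0365, against -1.74 and 0.0962 with it). Gpr141 (-2.59, adjusted p = 0.101) and Gpr160 (-1.62, adjusted p = 0.12), in which BS6 replicate 2 was the highest library, were called by DESeq2 together with Gpr65, and not by edgeR without that library (-1.40 and -0.79). In BS6 against BS2, Gpr160 was at 3.06, and at 2.23 without that library. In 10 of the 47 genes (21.3%) the libraries of the groups did not overlap, against 38.1% of all genes. The 4 higher in SB2 (8.51%, against 20.3%) included Gpr39, Gpr180 and Gpr89, and the 6 lower in SB2 were Gpr141, Gpr160, Gpr65, Gpr20, Gpr4 and Gpr17 (12.8%, against 17.8%). Most differences were small, with 39 of 47 within a log2 fold change of 1 and a median standard error of 0.37.

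SB4 and BS2 both hold brain transcripts. Of 47 Gpr genes tested, none was called (background 0.147%, 0.0860% higher and 0.0614% lower in SB4), by edgeR or by DESeq2, and 8 had an unadjusted p under 0.05, as had 11.9% of all genes. Differences were smaller and better measured than between SB2 and BS6, with 44 of 47 within a log2 fold change of 0.5 and a median standard error of 0.12. Only Gpr83 had an adjusted p under 0.05, at a log2 fold change of -0.34 (standard error 0.08, adjusted p = 0.0469), with 29.1, 27.7 and 28.7 CPM in SB4 and 35.9, 33.6 and 37.3 CPM in BS2. The groups did not overlap in 10 of 47 genes (21.3%, against 16.5% of all genes), with 4 higher (8.51%, against 10%) and 6 lower (12.8%, against 6.51%). Gpr3 (0.59), Gpr4 (0.50) and Gpr157 (0.26) were among those above in every SB4 library, and Gpr160 (-0.96), Gpr83, Gpr137c (-0.28), Gpr34 (-0.25), Gpr85 (-0.20) and Gpr135 (-0.18) were below. The abundant Gpr26 and Gpr158 differed by -0.12 (standard error 0.07) and -0.09 (standard error 0.06).

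**Figure D4:**
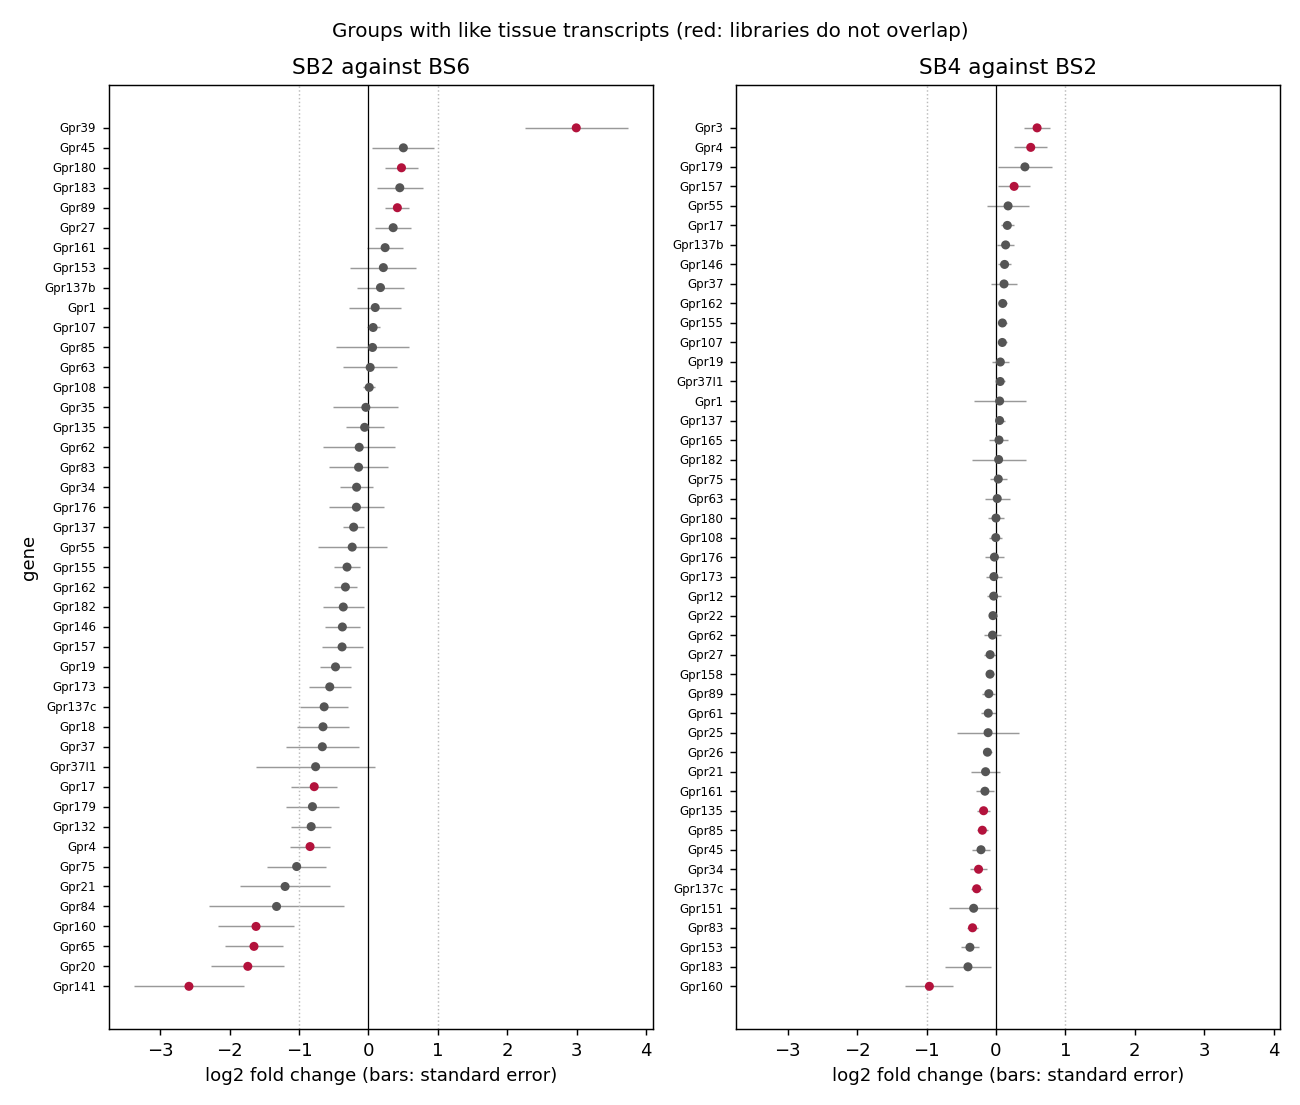
Log2 fold change with standard error of 44 Gpr genes in SB2 against BS6 (left) and of 45 in SB4 against BS2 (right); red points mark genes whose libraries do not overlap between groups and dotted lines a log2 fold change of 1 in either direction. No gene was called in either panel, and the spread is wider on the left, where BS6 replicate 2 stands apart.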

How the data were processed

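Poly(A) RNA libraries were read from both ends. Per the methods of the study, the authors trimmed reads with fastp 0.23.0 and aligned them to mm10 with HISAT2 2.1.0. The deposited matrix holds raw counts per gene symbol without normalization. The counting program, its annotation, its use of strand and whether the counts precede a batch correction with ComBat_seq are not given in the sources used here. No line of the matrix lacked a gene name. Reads of overlapping or copied genes could be split or shared.

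Counts were fitted in edgeR 4.0.16 (R 4.3.3) by the quasi-likelihood test with robust dispersion, TMM factors and filterByExpr at a minimum count of 10, on the 3 libraries of each of 2 groups at a time, with Benjamini-Hochberg adjustment over all genes tested. The method was tested on simulated data. Standard errors were derived from the size of the fold change and the F statistic. Counting intervals and floors cover counting error only. CPM used TMM factors over all 12 libraries, and lengths the union of exons in GENCODE M21. The Gpr genes with the 24 highest group means, the 5 highest per kilobase in each group and any called between like groups at 1 CPM or more were named, as were, in each list of signalling genes, the 2 largest changes in each direction among genes called with at least 10 CPM. Ch25h, under 10 CPM in every group, was named outside this rule. For the Gpr genes with the 24 highest group means the difference between the 2 late against early changes was tested in 1 fit over the 12 libraries. Of the Gpr genes, 3 entered every fit, sum and count and are not reported here by name. The Gpr genes and the lists were chosen with earlier results of these data known. Alternatives were DESeq2 1.42.0, RLE factors, total counts, 2 other filters, 1 fit over all libraries, a replicate block, no fold threshold and leaving out each library.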

Additional observations from a re-analysis of the deposited data

Results flagged for a closer look

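Of the 24 Gpr genes with the highest levels, 23 are listed here and the other is not reported by name. For each gene listed, the late against early change differed between the libraries labelled skull (BS6 against BS2) and those labelled brain (SB4 against SB2). The difference was tested as an interaction over all 12 libraries in edgeR (quasi-likelihood test, Benjamini-Hochberg adjustment). Of all genes tested, 84.9% had an adjusted p under 0.05 for this difference, and of the 56 Gpr genes tested 52 had (92.9%). With each library left out in turn, 23 to 24 of the 24 genes differed, counted with those not reported by name. The values below are the skull-labelled change minus the brain-labelled change on the log2 scale.

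The difference was negative for 16 of these genes. It was -22.48 for Gpr26, -18.51 for Gpr158, -15.42 for Gpr22, -13.80 for Gpr61, -11.38 for Gpr83 and -11.14 for Gpr85. It was -9.58 for Gpr37l1, -8.74 for Gpr137c, -8.65 for Gpr37 and -8.27 for Gpr17. Smaller differences were those of Gpr155 (-4.94), Gpr162 (-3.83), Gpr135 (-2.85), Gpr89 (-1.42), Gpr137 (-1.42) and Gpr27 (-0.75).

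The difference was positive for 7 genes, at 5.19 for Gpr137b, 4.04 for Gpr153, 3.56 for Gpr108, 2.71 for Gpr180, 1.95 for Gpr146, 1.56 for Gpr176 and 1.01 for Gpr107. The labels set these contrasts, and the day and the tissue transcripts of the libraries cannot be told apart in them.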

How the results depend on the processing

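Neither RLE size factors, total counts nor the absence of a filter on low counts changed the direction or the call of any Gpr gene that passed the filter in the late against early comparisons. Without the filter all 61 were tested, and 43 and 46 were called. The added calls were Gpr25 and Gpr82 in SB4 against SB2, and Gpr25, Gpr84, Gpr143 and Gpr149 in BS6 against BS2. Total counts moved the median log2 fold change of all genes in SB4 against SB2 to -0.11. With at least 10 counts in every library, which leaves 35 and 31 Gpr genes, 13 were higher and 9 lower in SB4 than in SB2 (against 23.4% and 24.8% of all genes), and 9 were higher and 12 lower in BS6 than in BS2 (against 25.3% and 22.7%). In SB2 against BS6, where edgeR called none, DESeq2 called 3 lower (against 4.59% of all genes), the fit over all 12 libraries called 1 higher and 5 lower (against 1.8% and 5.24%), and leaving out each library called 0 to 1 higher and 0 to 2 lower, the upper values without BS6 replicate 2. In SB4 against BS2, an adjusted p with no fold threshold called 1 lower. Values near 0 changed sign when a library was left out. The log2 fold change of Gpr1 then ranged from -0.00634 to 0.373 in SB4 against SB2 and from -0.377 to 0.0926 in BS6 against BS2, and in the latter that of Gpr161 from -0.373 to 0.00908. The cause was not tested. With each library left out in turn, 40 to 42 Gpr genes were called in SB4 against SB2 and 40 to 43 in BS6 against BS2, of which 40 to 41 were also called with all libraries in each comparison.

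The replicate numbers did not pair the libraries. Same-numbered libraries had correlations of their deviations from the group means between -0.09 and 0.06. With the replicate number as a block, 40 Gpr genes were called in SB4 against SB2, 40 in BS6 against BS2 and 0 in each of the like groups. Gpr84, Gpr153 and Gpr179 were not called in that fit (adjusted p = 0.0715, 0.0578 and 0.0553). Depth limits the Gpr genes under 1 CPM, whose folds rest on a few counts.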
